A study of Mus musculus with 6 samples.

Results

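Granzymes and perforin are the killing proteins that cytotoxic lymphocytes keep in granules. The 8 genes described here are Prf1, which encodes perforin, and the granzyme genes Gzma, Gzmb, Gzmc, Gzmd, Gzme, Gzmf and Gzmg, taken by name from the 31055 genes of the wound matrices. They were followed in 3 single-cell RNA libraries of mouse skin wounds, over natural killer (NK)-like cells, T cells and all other cells. A cell was kept with at least 300 genes, fewer than 100000 UMIs (unique molecular identifiers, each standing for 1 captured RNA molecule) and less than 10% mitochondrial UMIs. The wounds were full-thickness excisions held open by splints on the backs of female and male wild-type C57BL/6J mice, 6 weeks old at surgery, and the tissue was taken on day 10 and digested to single cells. A collagen-pullulan hydrogel lay on each wound. It was seeded with control bone marrow-derived dendritic cells (DCs), seeded with Ndrg2-KO DCs, in which Cas9 had disrupted the Ndrg2 gene, or left blank. The labels call the control DCs untreated, while the study's methods say that they received Cas9 with 3 non-targeting guides. The study names 5 mice per group, each group is 1 library, and whether the mice were pooled is not stated in the sources used here. No comparison between wounds therefore has a replicate or a test, and all intervals below are exact 95% intervals that cover counting error only. A difference between treatments and one between libraries cannot be told apart.

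Perforin makes pores in the membrane of a target cell, through which granzymes enter and cleave proteins that start cell death. Granzyme A cleaves after basic residues, and granzyme B cleaves after aspartate and activates caspases. Granzymes C to G are serine proteases of mouse cytotoxic cells that are less well studied. In mouse lymphocytes, granzyme B is not limited to NK cells and CD8 T cells, since activated regulatory T cells can also make it.

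The genes lie at 3 loci (mouse build GRCm38, GENCODE M21). Prf1 was at chr10:61297833-61304680 on the plus strand and Gzma at chr13:113093825-113100981 on the minus strand. The other 6 were on the minus strand of chromosome 14 within 145 kb, in the order Gzme (chr14:56117626-56120625), Gzmd (chr14:56129556-56132608), Gzmg (chr14:56156582-56159579), Gzmf (chr14:56205263-56211417), Gzmc (chr14:56231441-56234656) and Gzmb (chr14:56258838-56262260). Gzmn lay between Gzmg and Gzmf, and Ctsg, the cathepsin G gene (chr14:56099881-56102574), lay beyond Gzme. Of the cluster genes, Gzmd, Gzme, Gzmf and Gzmg are close copies of each other. Their transcripts shared 87.6 to 94.8% of their aligned bases, that of Gzmc shared 76.1 to 77.1% with these 4, and that of Gzmb shared 70.1 to 77.6% with the other 5. Gzma shared 62.8 to 64.2% with the other granzymes. Of all 50-base windows of the transcript, 21.5% in Gzmd, 19.1% in Gzme, 15.2% in Gzmg, 7.36% in Gzmf and 4.14% in Gzmc also occurred in another member, against 0 in Gzma and Gzmb. In the last 500 bases, nearest to the 3′ end that the libraries count, it was 20.0% in Gzmd, 15.3% in Gzme, 7.10% in Gzmf, 5.76% in Gzmg and 0 in Gzmc. The division of UMIs among Gzmd, Gzme, Gzmf and Gzmg is uncertain to that extent, and how reads were assigned was not tested.

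The upstream sequences show the same relation. Shown are 100 bases upstream of each gene, 5′ to 3′ on the gene's own strand, from the RefSeq promoter table (GRCm38.p6, 8 of 8 genes matched). They stood at chr10:61297733-61297832 (Prf1), chr13:113100982-113101081 (Gzma), chr14:56262335-56262434 (Gzmb), chr14:56234683-56234782 (Gzmc), chr14:56132623-56132722 (Gzmd), chr14:56120656-56120755 (Gzme), chr14:56211458-56211557 (Gzmf) and chr14:56159625-56159724 (Gzmg). Capitals mark a RUNX motif in Gzma and Gzmb, and in Gzmc to Gzmg a 20-base block that all 5 share. The windows of Gzma and Gzmb end at the RefSeq transcription start and that of Prf1 3 bases before it. Those of Gzmc, Gzmd, Gzme, Gzmf and Gzmg were set to end on the shared block, which lies 25, 29, 30, 50 and 45 bases before the start. No motif searched lies in the Prf1 window.
Prf1: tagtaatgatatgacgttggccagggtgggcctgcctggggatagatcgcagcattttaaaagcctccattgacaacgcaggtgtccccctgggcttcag
Gzma: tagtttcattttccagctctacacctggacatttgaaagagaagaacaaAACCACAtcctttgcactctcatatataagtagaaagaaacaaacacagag
Gzmb: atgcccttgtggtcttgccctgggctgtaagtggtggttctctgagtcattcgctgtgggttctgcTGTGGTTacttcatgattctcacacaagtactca
Gzmc: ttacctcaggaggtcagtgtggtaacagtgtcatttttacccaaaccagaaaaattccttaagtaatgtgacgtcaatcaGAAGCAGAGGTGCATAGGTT
Gzmd: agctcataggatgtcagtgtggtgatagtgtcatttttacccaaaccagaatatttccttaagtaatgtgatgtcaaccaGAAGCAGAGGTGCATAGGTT
Gzme: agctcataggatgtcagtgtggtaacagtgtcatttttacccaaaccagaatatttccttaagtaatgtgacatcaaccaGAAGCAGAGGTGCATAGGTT
Gzmf: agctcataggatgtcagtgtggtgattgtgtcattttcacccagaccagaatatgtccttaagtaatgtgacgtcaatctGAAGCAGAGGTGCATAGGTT
Gzmg: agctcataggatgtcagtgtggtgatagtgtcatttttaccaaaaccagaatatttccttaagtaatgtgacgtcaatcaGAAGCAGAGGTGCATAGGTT
With the windows lined up on this block, which counts among the positions, those of Gzmc to Gzmg were identical at 84.0 to 97.0% of positions, and their shared block GAAGCAGAGGTGCATAGGTT was found in 5 of 32851 promoters.
Promoters of 250 bases before and 50 after the start were searched for 3 motifs on both strands. The RUNX letters AACCACA or TGTGGTT were in 7 of the 8 promoters, all but that of Prf1, and in 5.27% of all 32851. The cAMP response element TGACGTCA was in Gzmc, Gzmf and Gzmg and in 1.79% of all promoters, and the T-box letters AGGTGTGA or TCACACCT were in 0 of the 8 and in 1.28% of all. These are matches of letters, not binding sites.

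The 3 libraries held 11032 cells after the limits, of 14276 barcodes. They were 1948 cells in control DC wounds (29675507 UMIs, median 10795 per cell), 5681 in Ndrg2-KO DC wounds (49240341 UMIs, median 4415) and 3403 in blank hydrogel wounds (34905741 UMIs, median 5603). The libraries shared 7 barcodes between pairs. Cells were clustered without the granzyme and perforin genes and named from marker lists. The NK-like cluster held 79 cells, 22 in control DC, 26 in Ndrg2-KO DC and 31 in blank hydrogel wounds, or 1.13%, 0.458% and 0.911% of kept cells. All 14 NK markers passed in it, among them Il2rb in 75 of 79 cells, Klrk1 in 66, Klre1 in 53 and Eomes in 46, while Cd4, Cd8a, Cd8b1 and Foxp3 had no UMI in any of the 79. It was not free of T cell transcripts, since 5 of 10 T cell markers also passed and Trbc1 had UMIs in 59 cells. UMIs of at least 2 of the 3 Cd3 chain genes were in 8 cells, 0 in control DC, 3 in Ndrg2-KO DC and 5 in blank hydrogel wounds. The T-like clusters held 434 cells (128, 212 and 94 in the same order), and 3 lymphoid clusters of 175 cells (28, 78 and 69), in which T cell markers stood beside those of keratinocytes, cycling cells or mast cells, were left unnamed. The remaining 10344 cells were mainly neutrophil-like, macrophage or monocyte-like and fibroblast-like.

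The 8 genes had 16673 UMIs in 329 of the 11032 cells, or 2.98%. NK-like cells, 0.716% of all cells, held 57.3% of these UMIs, and 72 of 79 had at least 1. By wound the share was 80.1% in control DC, 52.4% in Ndrg2-KO DC and 75.5% in blank hydrogel wounds. Ndrg2-KO DC wounds gave 13404 of the UMIs, and without 2 cells described below the share there was 39.1%. T-like cells had a UMI in 133 of 434 cells and held 1239 UMIs, and unnamed lymphoid cells had one in 46 of 175. In the other cells 78 of 10344 had a UMI. After each cell was drawn to 1000 UMIs, so that depth was equal (185 cells below that were left out, 7 of them T-like and 0 NK-like), 82.3% of NK-like cells (interval 72.1 to 90.0), 14.5% of T-like cells (11.3 to 18.2) and 13.5% of unnamed lymphoid cells (8.77 to 19.6) still had a UMI of the family. The same share was 0.186% in neutrophil-like cells (0.0850 to 0.352), a class that should lack these genes, and is read here as background. At full depth it was 0.508% in neutrophil-like cells, whose median depth was 2975 and 3313 UMIs in their 2 clusters, against 91.1% in NK-like cells with a median of 6527.

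**Figure D1:**
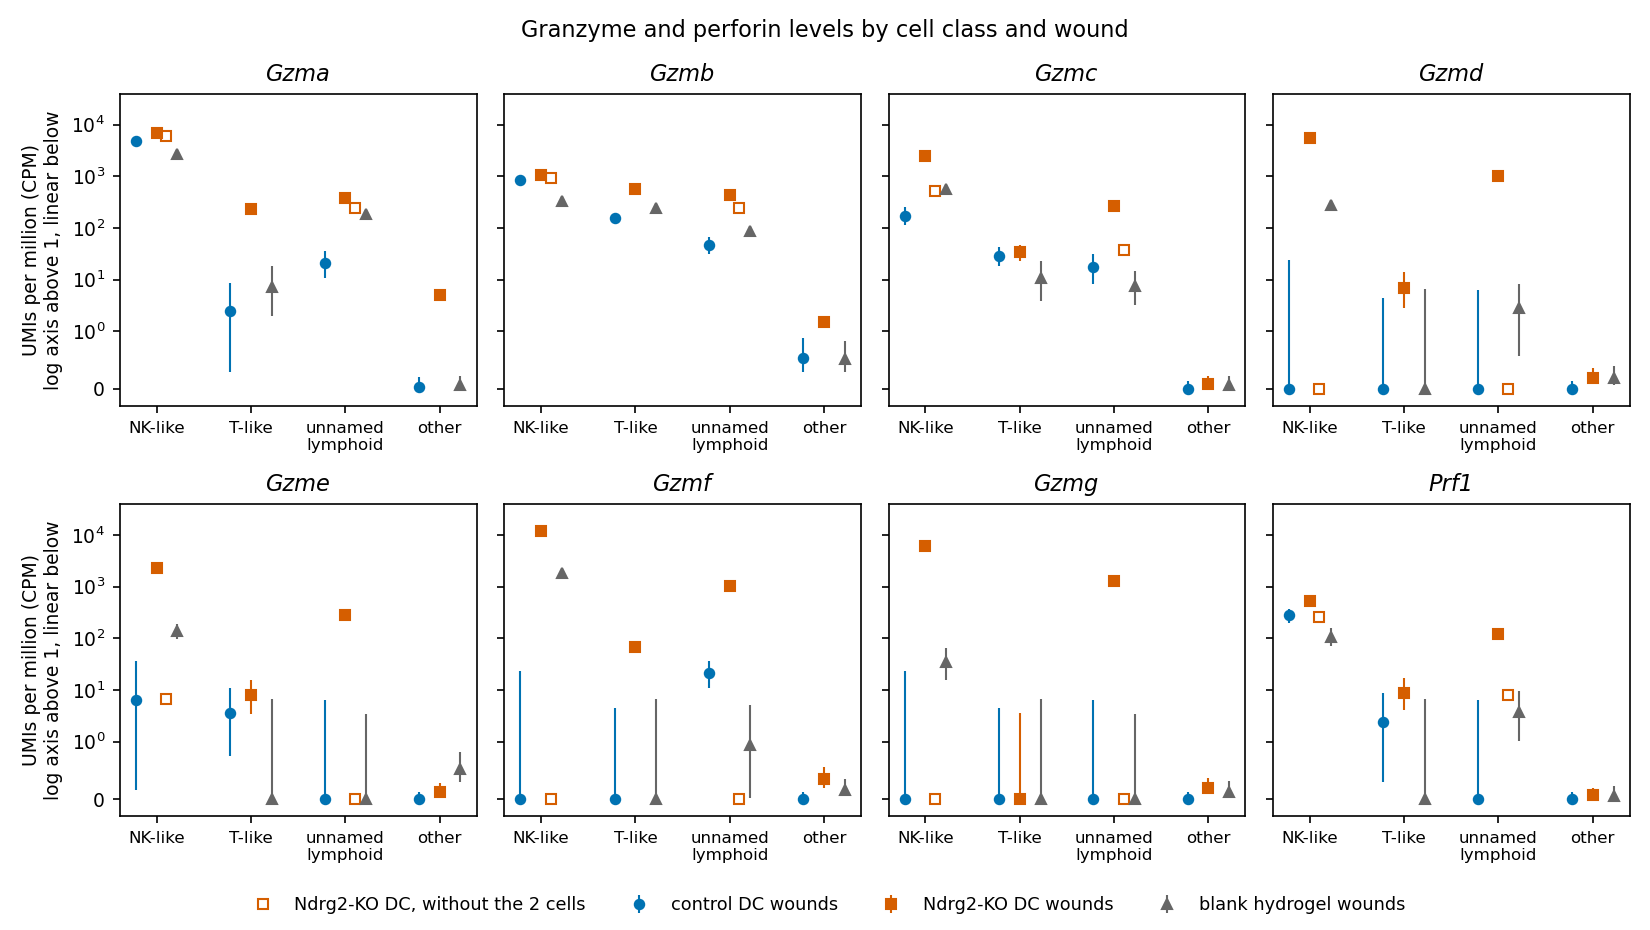
Level of each gene (CPM, UMIs of the gene per 1000000 UMIs, on an axis that is logarithmic above 1 and linear below) in 4 cell classes of each wound, with bars for the exact counting interval. Gzma, Gzmc and Prf1 were highest in NK-like cells of every wound, and the open squares show that Gzmd, Gzmf and Gzmg fell to 0 in NK-like cells of Ndrg2-KO DC wounds when 2 cells were left out.

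Levels are given as CPM, the UMIs of a gene per 1000000 UMIs of all genes, from the sum over the cells of a class in a library. Prf1 had 319 UMIs in 72 cells. In NK-like cells it stood at 276 CPM in control DC wounds (20 of 22 cells), 526 in Ndrg2-KO DC wounds (17 of 26 cells) and 107 in blank hydrogel wounds (11 of 31 cells). T-like cells had 2.44, 8.91 and 0 CPM in the same order, unnamed lymphoid cells 0, 120 and 3.73, and the other cells at most 0.0639. NK-like cells had the highest Prf1 level in every wound, and only 10 of 434 T-like cells had a Prf1 UMI. A single NK-like cell held 62 of the 101 Prf1 UMIs of Ndrg2-KO DC wounds, and without it the level there was 263 CPM, next to the 276 CPM of control DC wounds. The 120 CPM of the unnamed lymphoid cells fell to 7.97 without another single cell, which held 119 of their 127 Prf1 UMIs.

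Gzma was the family member most widely found in NK-like cells, with 2805 UMIs in 63 of 79 cells. Its level was 4831 CPM in control DC wounds (19 of 22 cells), 6932 in Ndrg2-KO DC wounds (23 of 26) and 2760 in blank hydrogel wounds (21 of 31). In T-like cells it was 2.44, 236 and 7.11 CPM, and in the unnamed lymphoid cells 20.9, 382 and 184. Without the cell that held most Gzma in each case, the 236 of T-like cells fell to 152 and the 382 and 184 of unnamed lymphoid cells to 247 and 88.9. The NK-like range lay above both, while the ranges of T-like and unnamed lymphoid cells overlapped. NK-like cells held 98.0% of Gzma UMIs in control DC wounds (96.8 to 98.9), 78.0% in blank hydrogel wounds (75.2 to 80.6) and 60.3% in Ndrg2-KO DC wounds (58.2 to 62.3). In Ndrg2-KO DC wounds the rest was spread over T-like (10.8%), unnamed lymphoid (18.4%) and other cells (10.6%). In the other cells 219 of 234 UMIs were in 1 fibroblast-like cell that also held 52 Cd3 UMIs and had a doublet score higher than 99.8% of its library.

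Gzmb was found in 227 cells, more than any other member, and over the 3 wounds 43.0% of its 1935 UMIs were in T-like cells (40.8 to 45.3) against 21.9% in NK-like cells (20.0 to 23.8). Ndrg2-KO DC wounds gave 1300 of these UMIs. By wound, T-like cells held 42.7% in control DC, 43.7% in Ndrg2-KO DC and 40.8% in blank hydrogel wounds, and NK-like cells 43.4%, 15.8% and 25.8%, so that in control DC wounds the shares were alike within their intervals. Its level in NK-like cells was 840, 1072 and 330 CPM in control DC, Ndrg2-KO DC and blank hydrogel wounds. In T-like cells it was 157, 562 and 242 CPM, and in unnamed lymphoid cells 47.0, 429 and 87.8. Of the 456 unnamed lymphoid UMIs of Ndrg2-KO DC wounds 211 were in 1 cell, without which the level was 244 CPM. Without the cell richest in Gzmb the T-like levels of control DC and blank hydrogel wounds fell to 101 and 155 CPM, and the 47.0 CPM of unnamed lymphoid cells to 16.0. With all cells the order was the same in every wound, with NK-like cells highest and unnamed lymphoid cells lowest, but the ranges of neighbouring classes over the wounds overlapped. In blank hydrogel wounds 31 of the 86 NK-like Gzmb UMIs were in 1 cell. Without it the level was 222 CPM (168 to 290), below the 242 of all T-like cells and above their 155 without the richest cell. Per cell the difference was also smaller than for Gzma, with Gzmb UMIs in 53 of 79 NK-like and 119 of 434 T-like cells.

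Gzmc had 1008 UMIs in 56 cells, of which 18 were NK-like and 20 T-like. In NK-like cells it stood at 173 CPM in control DC wounds (3 of 22 cells), 2430 in Ndrg2-KO DC wounds (5 of 26) and 564 in blank hydrogel wounds (10 of 31). In T-like cells it was 29.2, 33.7 and 10.7 CPM. Of the 467 NK-like Gzmc UMIs of Ndrg2-KO DC wounds 390 were in 1 cell, and without it the level was 520 CPM. Without the richest cell the NK-like level was 94.4 CPM in control DC and 366 in blank hydrogel wounds. With only the Ndrg2-KO DC cell left out, the log2 ratio of Ndrg2-KO DC over blank hydrogel wounds was -0.12 (interval -0.53 to 0.29). With the richest cell of each wound left out, the levels were 520 CPM (410 to 650) in Ndrg2-KO DC and 366 (295 to 447) in blank hydrogel wounds. The order of these 2 therefore depended on the cells left out, while both stood above control DC wounds (94.4, 51.6 to 158).

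The 4 most similar genes, Gzmd, Gzme, Gzmf and Gzmg, formed a pattern of their own. They had 2231, 810, 3896 and 2573 UMIs, but in only 19, 16, 27 and 13 cells. Almost all of it came from 2 cells of Ndrg2-KO DC wounds, which held 95.6% of Gzmd, 91.1% of Gzme, 85.3% of Gzmf and 99.1% of Gzmg UMIs. Over all 8 genes these 2 cells had 10413 UMIs, or 62.5% of the family.

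**Figure D2:**
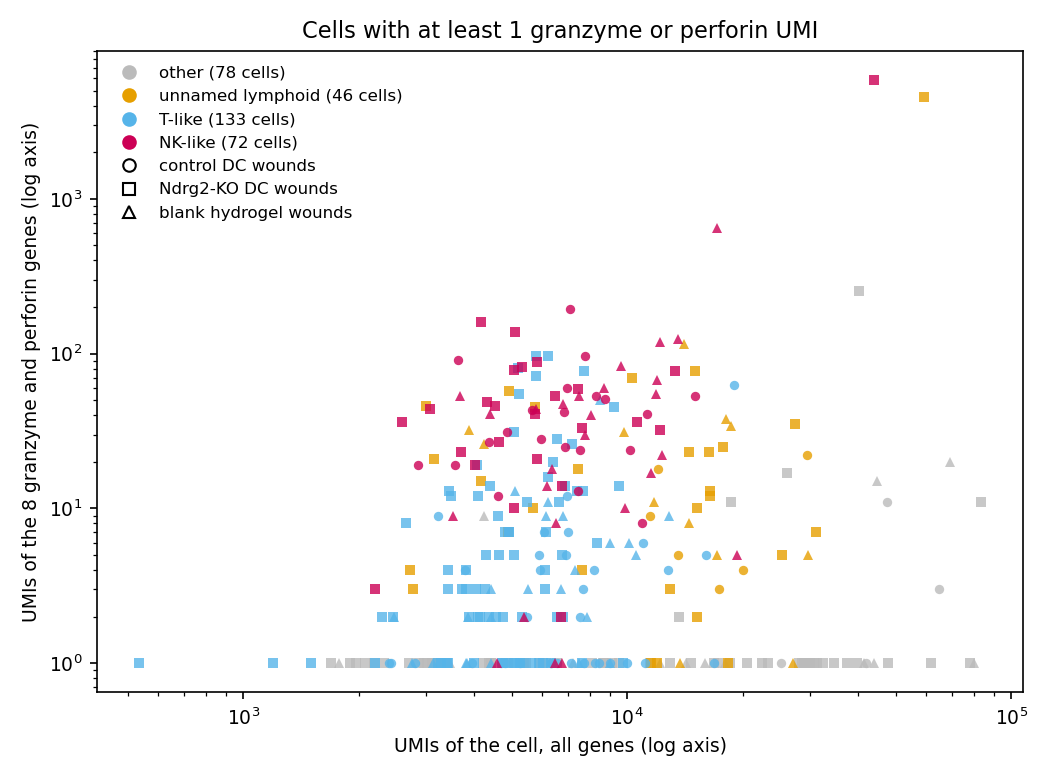
UMIs of the 8 genes against UMIs of all genes in the 329 cells with at least 1 family UMI (both axes logarithmic, colour by class and symbol by wound). The 2 cells at the top right, both squares for Ndrg2-KO DC wounds, had 5858 and 4555 family UMIs, and the next cell had 645.

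The first of the 2 cells was NK-like. It had 44011 UMIs, of which 5858 (13.3%, interval 13.0 to 13.6) were of the family, with 2247 of Gzmf, 1181 of Gzmg, 1057 of Gzmd, 435 of Gzme, 420 of Gzma, 390 of Gzmc, 66 of Gzmb and 62 of Prf1. It had UMIs of 10 of the 14 NK markers, 8 Eomes UMIs and 1 Cd3 UMI. The second lay in the unnamed cluster in which all 6 cycling markers passed and which the interleukin genes Il5 and Il13 led beside the members. It had 59185 UMIs, of which 4555 (7.70%, 7.48 to 7.91) were of the family, with 1370 of Gzmg, 1076 each of Gzmf and Gzmd, 303 of Gzme, 242 of Gzmc, 211 of Gzmb, 158 of Gzma and 119 of Prf1. It had UMIs of 5 NK markers, among them 6 of Eomes and 5 of Klrb1c, and 0 Cd3 UMIs. In depth they lay at the percentiles 99.1 and 99.7 of their library and in doublet score at 96.9 and 99.3, and the part of doublets in them was not tested. Neither had a UMI of the cycling markers.

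Both cells also held RNA that the other NK-like cells lacked or had little of. Ctsg, the cathepsin G gene at the edge of the cluster, had 79 and 103 UMIs in them, 0 in the other 78 NK-like cells and 187 in all 11032 cells. Gzmn, which lies inside the cluster, had 0 UMIs in both, and Mcpt8, a basophil protease gene beyond Ctsg, had 3 and 4. Of 298 genes compared, others far above the remaining NK-like cells in both were Ifitm1 (299 and 66 UMIs, against 5 in the other 78 cells together), Tmsb15a (87 and 292, against 18), Spp1, the osteopontin gene (639 and 323, against 159), and the metallothionein gene Mt1 (89 and 155, against 58). These genes were chosen after their values were seen. The inhibitory receptor Klrg1 had 6 and 24 UMIs and the integrin gene Itga1 12 and 7, while Cxcr6, Il7r and S1pr5 had 0 in both.

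Another cell with the same genes came from blank hydrogel wounds. It was NK-like, had 17116 UMIs and held 645 of the family (3.77%, 3.49 to 4.06), with 457 of Gzmf, 80 of Gzma, 65 of Gzmd and 21 of Gzmc, and it had no Ctsg UMI. In NK-like cells outside the 2 cells the 4 genes were found in few cells, Gzmd in 3, Gzme in 5, Gzmf in 2 and Gzmg in 1. Control DC wounds had 1 NK-like UMI of Gzme and 0 of Gzmd, Gzmf and Gzmg, and 0 of 22 cells allows a share of cells with a UMI of up to 13.6% (3 cells of 22). This does not limit the share of cells that express the gene. Outside NK-like cells, control DC wounds had 12 Gzmf UMIs in 1 unnamed lymphoid cell and 3 Gzme UMIs in 1 T-like cell. Among other cells of Ndrg2-KO DC wounds, Gzmf had 16 UMIs in 16 cells, Gzmd 9 in 9 and Gzmg 9 in 9, always 1 UMI per cell.

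Joint detection in single NK-like cells is given beside the count over all 79, of which 63 had Gzma, 53 Gzmb and 48 Prf1. Of the 48 cells with a Prf1 UMI 45 had Gzma and 39 had Gzmb, and of the 53 with Gzmb 49 had Gzma. Every NK-like cell with Gzmd (4), Gzme (6), Gzmf (3) or Gzmg (2) had Prf1. Of the 18 NK-like cells with Gzmc, 10 had Gzma, 12 had Gzmb and 10 had Prf1. No difference between these counts was tested.

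Other genes of the cytotoxic granule were compared between NK-like and T-like cells of the same wound, as a description, since these genes took part in the clustering. A gene counts here when its level differed at least 2-fold the same way in all 3 wounds, which 2.22% of 7868 genes did upwards and 4.93% downwards. Of the 8 members, Gzma, Gzmc and Prf1 were higher in NK-like cells by this rule. Gzma was higher by 10.95, 4.88 and 8.60 on the log2 scale in control DC, Ndrg2-KO DC and blank hydrogel wounds, and Gzmc by 2.57, 6.17 and 5.72, of which the 6.17 was 3.95 (3.35 to 4.58) without the 2 cells. Gzmb did not pass, at 2.42, 0.93 and 0.45.

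Of the 9 genes for granule storage, activation and content, Nkg7, a granule membrane protein, passed upwards, with 808, 1181 and 981 CPM in NK-like and 244, 330 and 62.2 in T-like cells. Srgn, the proteoglycan that holds granzymes in the granule, was at 866, 1296 and 966 CPM in NK-like and 1800, 1994 and 2174 in T-like cells, and Ctsc, the protease that activates pro-granzymes, did not pass. None of the 8 genes for granule transport and release passed. Of 5 inhibitors 3 were higher, Serpinb9, which blocks granzyme B, at 751, 323 and 656 against 169, 104 and 62.2 CPM, with Serpinb9b and Serpinb6b.

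Of 9 death ligands and effector cytokines, the chemokine genes Xcl1 and Ccl5 were higher in NK-like cells and Tnf and Csf2 lower. Ccl5 stood at 6377, 4012 and 2549 CPM against 836, 946 and 460. Csf2 had 0 UMIs in all NK-like cells and 81, 84 and 26 in T-like cells. Of 9 regulators with enough UMIs, Eomes was higher (212, 203 and 150 CPM against 1.22, 3.96 and 0), and Prdm1 and Hopx were lower. Among 8 cytokine receptor genes, Il2rb, the chain shared by the IL-2 and IL-15 receptors, was higher at 1392, 958 and 1150 against 498, 414 and 457 CPM, and Il2ra was lower. Xcl1, Eomes and Il2rb are NK markers that named the cluster, so that their level there was fixed by the naming. Of 8 genes of tissue-resident lymphocytes 5 were lower.

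**Figure D3:**
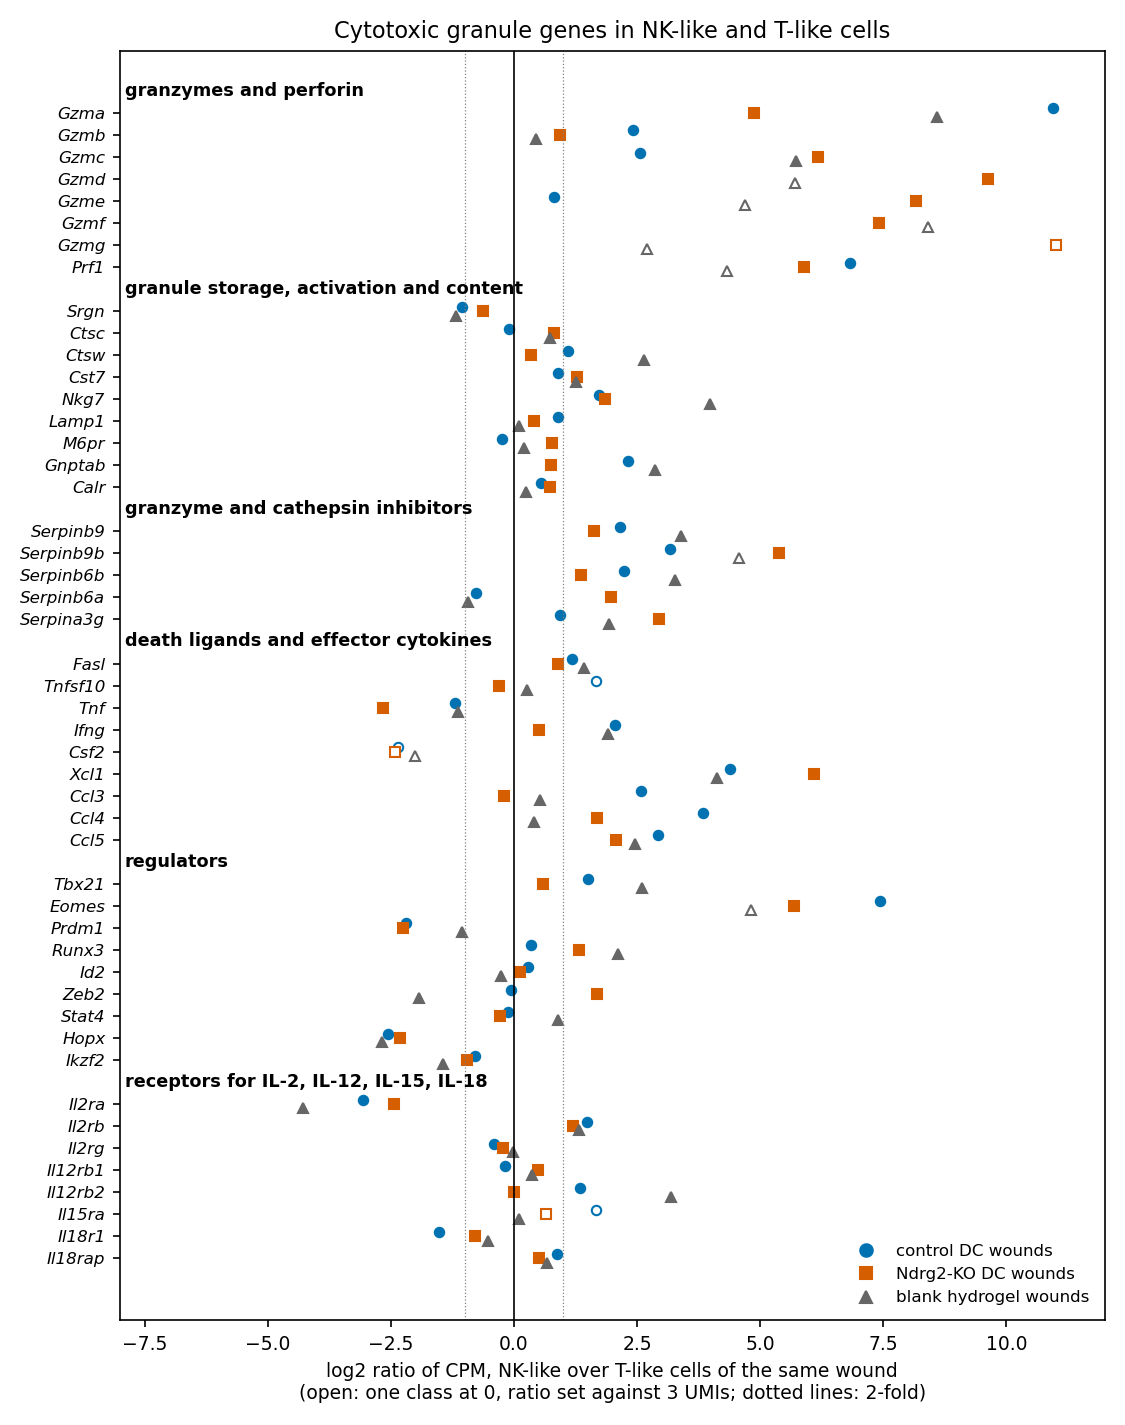
Log2 ratio of CPM, NK-like over T-like cells of the same wound, for the 8 members and the granule gene lists (1 symbol per wound, open where 1 class had 0 UMIs, dotted lines at 2-fold). Gzma, Gzmc and Prf1 lay to the right of the upper line in all 3 wounds, while Gzmb lay between 0.45 and 2.42.

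The study's comparison of Ndrg2-KO DC with control DC wounds was read within NK-like cells. The summed level of the 8 genes was 6127 CPM in control DC wounds, 36568 in Ndrg2-KO DC wounds and 6015 in blank hydrogel wounds. This puts Ndrg2-KO DC above control DC wounds by 2.58 on the log2 scale (interval 2.48 to 2.68). Without the 2 cells, of which 1 was NK-like, the level in Ndrg2-KO DC wounds was 7891 CPM and the difference 0.36 (0.24 to 0.49). By cell, the median share of the family among a cell's UMIs was 0.558% in control DC, 0.669% in Ndrg2-KO DC and 0.256% in blank hydrogel wounds.

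Of the 8 members, 5 were at least 2-fold higher in Ndrg2-KO DC than in control DC wounds, against 7.14% of the 2144 genes (and 9.75% at least 2-fold lower, with 0 members) with at least 20 UMIs in both sums together. They were Gzmc (3.81 on the log2 scale, 3.25 to 4.43), Gzme (8.47, interval 5.98 to 13.77, from 436 UMIs against 1) and, against a floor of 3 UMIs, Gzmd (at least 8.16), Gzmf (at least 9.25) and Gzmg (at least 8.32). The last 4 met the UMI minimum only through the 1 cell described above. Without it only 4 members had enough UMIs, and 1 of them, Gzmc at 1.59 (0.94 to 2.27), was at least 2-fold higher, against 5.09% of 1905 genes (8.29% lower, 0 members). As a mean over cells the Gzmc difference was 1.98 with all cells. As summed levels without the cell, Gzma differed by 0.35 (0.21 to 0.49), Gzmb by 0.17 (-0.19 to 0.52) and Prf1 by -0.07 (-0.73 to 0.59). The median of all genes was -0.08 with all cells and -0.05 without the cell.

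In blank hydrogel against control DC wounds the family sum with all cells differed by less than its counting error (-0.03, -0.14 to 0.09). In NK-like cells of blank hydrogel wounds 645 of the 1569 family UMIs were in 1 cell, and the sum without it was not computed. As a mean over cells the difference was -0.49. The members of the family lay apart. Gzmb stood at -1.35 (-1.76 to -0.95) and Prf1 at -1.36 (-2.10 to -0.64), 2 of 7 members with enough UMIs at least 2-fold lower, against 4.73% of 2624 genes. Gzma stood at -0.81 (-0.96 to -0.66). Gzmc was higher by 1.70 (1.10 to 2.35), Gzme by 4.43 (1.86 to 9.77, from 36 UMIs against 1), Gzmd by at least 3.86 and Gzmf by at least 6.55, against 6.63% of genes, and 457 of the 470 Gzmf UMIs and 65 of the 73 Gzmd UMIs were in the single blank hydrogel cell described above. A different blank hydrogel cell held 27 of the 36 Gzme UMIs, and without it the Gzme level fell from 138 to 35.8 CPM. Gzmd, Gzme and Gzmf met the UMI minimum only through blank hydrogel wounds and so had to differ.
The 5 NK-like cells of blank hydrogel wounds with UMIs of at least 2 Cd3 chain genes held 0 Gzma and 0 Gzmb UMIs. Without all 8 such cells Gzma stood at -0.63 (-0.78 to -0.48), Gzmb at -1.17 (-1.58 to -0.77) and Prf1 at -1.18 (-1.92 to -0.46) in blank hydrogel wounds. In Ndrg2-KO DC wounds, with the NK-like cell of high granzyme content kept, Prf1 then stood at 1.12 (0.59 to 1.67) in place of 0.93 (0.40 to 1.48), Gzma at 0.68 (0.54 to 0.81) in place of 0.52 (0.39 to 0.65), and Gzmb at 0.13 (-0.22 to 0.48) in place of 0.35 (0.03 to 0.68), no longer beyond counting error. The 3 cells left out there held 54 of 206 Gzmb UMIs. Where NK-like cells were instead chosen singly, by at least 3 NK markers and no Cd3d, Cd3e, Trac or Trdc UMI, the blank hydrogel ratio was -0.59 for Gzmb (-1.0 to -0.17), less than 2-fold, -0.20 for Gzma (-0.36 to -0.04) and -1.30 for Prf1 (-2.17 to -0.48). By the same choice of cells the Ndrg2-KO DC ratio was 1.34 for Gzmb (1.03 to 1.66) and 2.11 for Prf1 (1.62 to 2.63), and 0.87 for Gzma (0.74 to 1.01), in place of 0.35, 0.93 and 0.52, but this choice took in both of the 2 cells. Without them it was -0.24 for Gzmb (-0.68 to 0.19), 0.03 for Prf1 (-0.68 to 0.73) and 0.73 for Gzma (0.58 to 0.89). For Gzmc this choice gave 2.49 in blank hydrogel wounds (1.67 to 3.42), 5.24 in Ndrg2-KO DC wounds (4.49 to 6.12) and 1.20 there without the 2 cells (0.21 to 2.25).

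The share of NK-like cells with a UMI was read for the members found in most of them. Drawn to equal depth, Gzma was found in 81.8% of NK-like cells in control DC (59.7 to 94.8), 88.5% in Ndrg2-KO DC (69.8 to 97.6) and 61.3% in blank hydrogel wounds (42.2 to 78.2). Gzmb was found in 45.5% (24.4 to 67.8), 46.2% (26.6 to 66.6) and 19.4% (7.45 to 37.5), and Prf1 in 31.8% (13.9 to 54.9), 34.6% (17.2 to 55.7) and 16.1% (5.45 to 33.7). All 3 were lowest in blank hydrogel wounds, with intervals that overlapped those of the other wounds. At full depth Prf1 was instead most often found in control DC wounds (20 of 22, 17 of 26 and 11 of 31 cells), and Gzmc in blank hydrogel wounds (3 of 22, 5 of 26 and 10 of 31). Against blank hydrogel wounds 8 of 8 members stood at least 2-fold higher in Ndrg2-KO DC wounds with all cells, against 4.15% of 2744 genes (7.69% lower, 0 members), of which Gzmg met the UMI minimum only through Ndrg2-KO DC wounds. Without the 2 cells, Ndrg2-KO DC wounds stood higher in Gzma by 1.16 (1.01 to 1.30), in Gzmb by 1.52 (1.12 to 1.92) and in Prf1 by 1.29 (0.56 to 2.05), 3 of 7 members with enough UMIs, against 3.31% of 2536 genes. In the same comparison Gzmd, Gzme and Gzmf stood lower, against 6.74% of genes, Gzme at -4.35 (-9.70 to -1.78, from 1 UMI against 36) and, with 0 UMIs in Ndrg2-KO DC wounds set at the floor of 3 UMIs, Gzmd at -3.79 and Gzmf at -6.48 or lower. These 3 met the minimum only through blank hydrogel wounds, and leaving out the Ndrg2-KO DC cell fixed their direction. Of the 140 NK-like Gzmb UMIs then left in Ndrg2-KO DC wounds, 52 were in 1 cell. With NK-like cells chosen singly as above and without the 2 cells, Gzmb against control DC wounds stood at -0.24 (-0.68 to 0.19) in Ndrg2-KO DC wounds. It stood at -0.59 (-1.0 to -0.17) in blank hydrogel wounds, and these intervals overlapped. The comparisons share libraries and are not independent of each other.

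**Figure D4:**
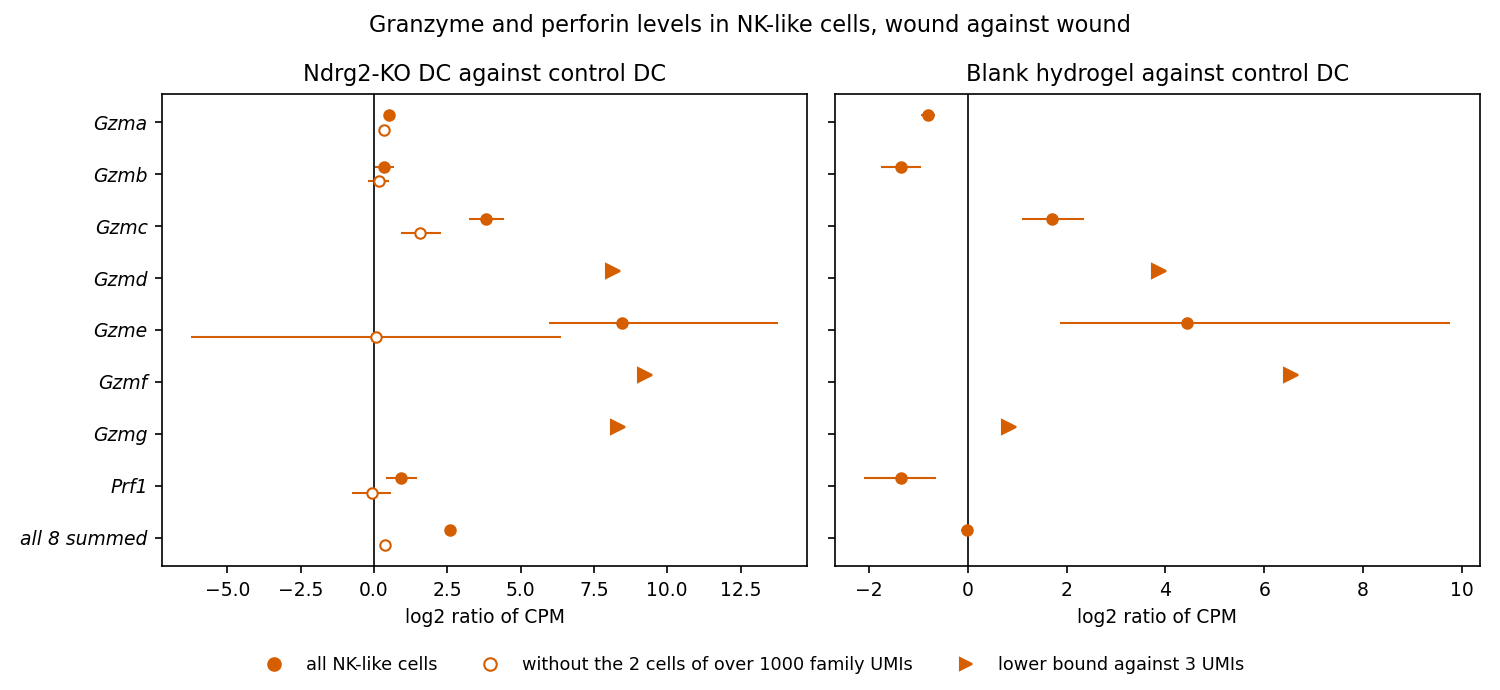
Log2 ratio of CPM in NK-like cells for each gene and for the sum of all 8, Ndrg2-KO DC (left) and blank hydrogel (right) against control DC wounds, with exact counting intervals. Triangles are lower bounds where the control DC wounds had 0 UMIs, and open symbols leave out the 2 cells, which brought the sum from 2.58 to 0.36.

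Of the granule transport genes 3 of 8 had enough UMIs and 0 differed 2-fold between Ndrg2-KO DC and control DC wounds, and of the 9 for storage, activation and content 8 had enough UMIs, of which 2 stood higher and 1 lower with all cells, beside the 7.14% and 9.75% of all genes, and 0 either way without the cell. The inhibitor gene Serpina3g stood higher in Ndrg2-KO DC (1.95, 0.36 to 3.96) and in blank hydrogel wounds (1.78, 0.23 to 3.77) than in control DC wounds, from 19, 23 and 4 UMIs. Il12rb2, an IL-12 receptor chain, stood lower in both, at -1.49 (-2.66 to -0.41) and -1.30 (-2.28 to -0.35). Serpinb9 was lower in Ndrg2-KO DC wounds at -1.22 (-1.69 to -0.76), and at -0.84 (-1.31 to -0.39) without the cell. Serpinb6a, another inhibitor gene, had 21 UMIs in Ndrg2-KO DC and 2 in control DC wounds, but 3 without the cell. In blank hydrogel wounds the chemokine genes Ccl5 (-1.32, -1.47 to -1.18) and Ccl4 (-3.27, -4.56 to -2.17) were lower together with Gzmb and Prf1.

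In T-like cells the family sum was 195 CPM in control DC, 924 in Ndrg2-KO DC and 260 in blank hydrogel wounds. Gzmb was the main part of it, and Ndrg2-KO DC wounds stood above control DC wounds in Gzmb by 1.84 (1.56 to 2.13) and above blank hydrogel wounds by 1.22 (0.95 to 1.50). Gzma was higher by 6.60 (4.73 to 9.65, from 238 UMIs against 2), but its 238 UMIs lay in 16 of 212 cells, with 85 in 1 cell. Gzmf had 69 UMIs in 2 cells of Ndrg2-KO DC wounds, at least 4.22 higher against a floor of 3 UMIs. These 3 members of 4 with enough UMIs compare with 3.64% of 6557 genes at least 2-fold higher (3.08% lower, 0 members). Gzma and Gzmf met the UMI minimum only through Ndrg2-KO DC wounds and so had to differ, which leaves Gzmb, and the count says nothing of the family. Against blank hydrogel wounds it was Gzma, Gzmb, Gzmc and Gzmf, beside 5.69% of 6186 genes (4.51% lower, 0 members), and of these only Gzmb would have met the minimum without Ndrg2-KO DC wounds. In blank hydrogel against control DC wounds, Gzmb stood at 0.62 (0.26 to 0.98), and Gzmc, with 6 UMIs against 24, at -1.45 (-3.04 to -0.13), 1 of 2 members against 4.84% of 5890 genes lower (4.47% higher, 0 members), and met the minimum only through control DC wounds. Drawn to equal depth, 8.73% of T-like cells in control DC (4.44 to 15.1), 20.2% in Ndrg2-KO DC (15.0 to 26.3) and 9.68% in blank hydrogel wounds (4.52 to 17.6) had a family UMI. At full depth it was 26.6%, 35.4% and 25.5%.

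The T-like clusters were not in equal parts in the wounds. The cluster with Cd8b1 and Cd3 genes had 61, 142 and 23 cells, the cluster with Gata3 and Cd28 46, 33 and 25, and the cluster with Il17a, Il2ra and Ikzf2, which was also led by the immunoglobulin genes Igkc, Jchain and Ighm, 21, 37 and 46. Foxp3 UMIs were in 44 of the 104 cells of the last and Il17a UMIs in 7. The first was mixed, with Cd4 UMIs in 100 of its 226 cells, Cd8b1 UMIs in 70 and Cd8a UMIs in 51. T-like cells were therefore also read by their marker UMIs. Cells with Cd8a or Cd8b1 UMIs (26, 55 and 6) had 10.5, 866 and 94.3 CPM of Gzma and 94.4, 892 and 141 CPM of Gzmb. They held 240 of the 244 T-like Gzma UMIs, and without 1 cell the 866 CPM of Gzma fell to 564. Cells with a Foxp3 UMI, the regulator of regulatory T cells (12, 22 and 19), had 471, 2485 and 761 CPM of Gzmb. In blank hydrogel wounds 50 of their 92 Gzmb UMIs were in 1 cell, and without the richest cell of each wound the levels were 355, 2091 and 374. Gzmb was found in 36 of these 53 cells and Prf1 in 0 of 53. Cells with Cd4 but no Foxp3 UMI (54, 81 and 27) had 68.3, 83.5 and 68.7 CPM of Gzmb and 0 Gzma UMIs. Between control DC and Ndrg2-KO DC wounds the Gzmb intervals did not overlap in cells with Cd8 UMIs (55.9 to 149 and 783 to 1012) or with a Foxp3 UMI (322 to 664 and 2202 to 2795), and they overlapped in the other Cd4 cells (44.6 to 100 and 57.5 to 117). The sets overlap in part, and a cell without a UMI of a marker may still express it.

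**Figure D5:**
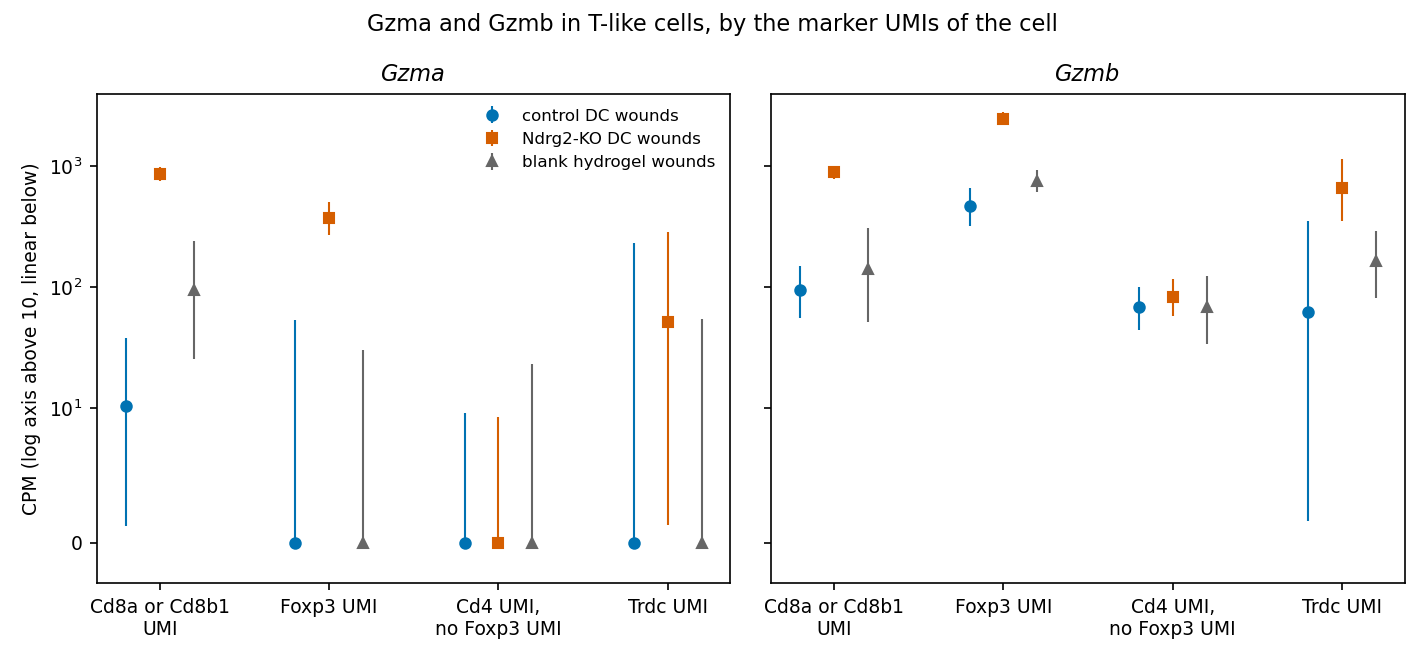
CPM of Gzma (left) and Gzmb (right) in T-like cells grouped by marker UMIs, for the 3 wounds, with exact counting intervals (axis logarithmic above 10 and linear below). Gzmb was highest in cells with a Foxp3 UMI, at 471, 2485 and 761 CPM, and nearly level over the wounds in cells with Cd4 but no Foxp3 UMI.

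The unnamed lymphoid cells held 32.8% of all family UMIs against 7.43% in T-like cells, and without the 2 cells 14.5% against 19.8%. The cluster that also carried mast cell markers (50 cells) had 211 Gzmb UMIs in 15 cells and 98 of Gzma in 7. The cluster with keratinocyte genes (75 cells) had 164 Gzma UMIs in 4 cells, all in blank hydrogel wounds. The cluster with cycling markers, led also by Il5 and Il13 (50 cells), had 353 Gzma UMIs in 9 cells and held the second of the 2 cells. Il13 UMIs were in only 5 of its 50 cells, against 30 for Top2a and 27 for Mki67. Outside lymphoid classes, 8 cells had 5 or more family UMIs, among them 3 DC-like cells with Cd3 and Trac UMIs. The part of doublets in these counts was not tested.

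Genes with the most similar pattern were sought over 42 units (a cluster in a library, with at least 20 cells) and 11621 genes, with Pearson's r on log2 CPM with 10 added. The units share libraries and depth, so this is a description. Gzma was most like the NK receptor genes Klra4 (r = 0.93) and Klre1 (0.93), then Prf1 (0.92) and Klra8 (0.92). Prf1 was most like Klra4 (0.93) and Gzma (0.92). Gzmb was most like Ptprcap (0.94), Sytl3 (0.93), Il2rb (0.92) and Trbc1 (0.91). Gzmc was most like Prf1 (0.91) and Gzma (0.87). Gzmd, Gzme, Gzmf and Gzmg were most like each other (0.90 to 0.99) and Tmsb15a (0.92 to 0.98). Without the 2 cells the 4 were still most like each other (0.90 to 0.97), while r between Gzmd and Tmsb15a was 0.67. Of the Gzmf UMIs then left 470 of 573, and of the Gzmd UMIs 73 of 98, were in NK-like cells of blank hydrogel wounds, 457 and 65 of them in 1 cell, so these r rest largely on 1 unit.

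The granzyme genes that are no members were sparse. Gzmk had 28 UMIs in 17 cells, and 15 of these UMIs were in T-like cells. Gzmm had 146 UMIs, at 3.28 CPM in NK-like, 5.01 in T-like and 1.18 in other cells, from 2, 12 and 128 UMIs, and Gzmn had 28 UMIs in 27 cells. The cultured bone marrow DCs of the same series, 3 libraries of 7257 to 8825 barcodes, had 1 Gzmb UMI in untreated DCs, 1 Prf1 UMI in vitamin D3 (VD3) stimulated DCs and none in Ndrg2-KO DCs, with 0 UMIs of the other 6 genes.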

How the data were processed

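The authors deposited 10x Genomics 3′ UMI count matrices for each library, the unit used here. Per the file headers they came from Cell Ranger 3.1.0 (cultured DCs) and 6.0.0 (wounds). The sources name different genome builds for the reads (mm9 in the submitters' notes, mm10 in the study's methods), so that positions given here are those of the annotation, matched by gene identifier. A design text that speaks of GFP-positive cells does not describe the wound matrices, which hold 1 eGFP and 0 tdTomato UMIs. The columns hold counts per barcode and gene, from 32639817 to 56216478 UMIs per wound library, and since the 3′ end is counted, levels were not divided by length.

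Groups were taken from the labels. Cells were limited to at least 300 genes, fewer than 100000 UMIs and less than 10% mitochondrial UMIs (the study's methods speak of 300 unique transcripts, read here as genes, and 300 UMIs were an alternative), clustered with Seurat 5.3.0 (2000 variable genes without the granzyme and perforin genes, 15 principal components, resolution 0.5), and lymphoid clusters were clustered again alone. This second step was planned for clusters with both NK and T markers and was extended, after the data were seen, to clusters with at least 3 markers of either. A marker passed at 50 CPM and 2-fold above all other cells, and a lymphoid name needed 75% of its list, a limit also set after the data were seen. Doublet scores were computed with the Scrublet method in scanpy 1.11.5. Its own threshold marked 0.172% of cells and did not work, so no cell was removed by it, and an alternative left out the highest 6% of scores in each library. Intervals were exact Poisson for CPM, Clopper-Pearson for shares and conditional binomial for ratios (SciPy 1.17.1), and tested on simulated counts, where 97.5% of 200 changed genes among 1905 were covered for Ndrg2-KO DC against control DC wounds in NK-like cells without the 2 cells, and 97.5% of 200 among 2624 for blank hydrogel against control DC wounds. Genes with fewer than 20 UMIs in both sums together were not compared. No test was possible with 1 library per group. The members, marker lists and pathway lists were chosen with earlier results of these data known. Genes named are the 8 members, the genes of those lists, the 5 most similar genes per member, and the genes of the 2 cells, which were chosen after their values were seen. Alternatives are given in the closing section. One gene of the list of circulating NK cells is not reported here, so no count is given for that list.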

Additional observations from a re-analysis of the deposited data

How the results depend on the processing

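No paired analysis was possible because each group is 1 library. In this section, cells with Cd3 chain UMIs are NK-like cells with UMIs of at least 2 of the 3 Cd3 chain genes. The share of family UMIs held by NK-like cells (57.3%) was 66.9% without the highest 6% of doublet scores, 59.0% without the 2 cells, 56.2% without NK-like cells with Cd3 chain UMIs and 81.5% when a cell needed at least 3 NK markers and no Cd3d, Cd3e, Trac or Trdc UMI. This 3-marker gate took in both of the 2 cells, and without them it gave 50.7%. The planned marker gate (2 NK markers and no T cell receptor or Cd3 UMI) gave 1.90%. It took 78 cells, of which 6 were in the NK-like cluster, where Trbc1 alone had UMIs in 59 of 79 cells, and the cells it took are mostly not NK-like by cluster.

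The log2 difference of the summed level, Ndrg2-KO DC against control DC wounds (2.58), was 2.70 with at least 300 UMIs in place of genes, 2.46 under 5% mitochondrial UMIs, 2.68 at resolution 1.0, 2.68 with 30 principal components, 2.46 with the members among the variable genes, 2.74 without mitochondrial and ribosomal protein genes, 2.76 without cells with Cd3 chain UMIs and 3.54 under the 3-marker gate (0.61 without the 2 cells). It was 0.35 without the highest doublet scores, 0.36 without the 2 cells and 1.02 as a mean over cells, and turned to -1.95 under the planned marker gate. Under that gate Gzma was at -1.94, Gzmb at -2.45 and Prf1 at -1.08. Gzmb was at -0.083 as a mean over cells and -0.24 under the 3-marker gate without the 2 cells, and Prf1 at -0.11 without the highest doublet scores and -0.068 without the 2 cells.

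For blank hydrogel against control DC wounds (-0.03) the value was 0.16 with at least 300 UMIs, 0.10 at resolution 1.0, 0.092 without mitochondrial and ribosomal protein genes, 0.10 without cells with Cd3 chain UMIs, -0.49 as a mean over cells and 0.61 under the 3-marker gate, with or without the 2 cells, and the planned gate gave none. The share of NK-like cells with a family UMI (82.3%) was 69.6% at 500 UMIs drawn, 68.8% under the 3-marker gate (68.0% without the 2 cells) and 8.97% under the planned gate. Of 99 values of single genes, 67 stayed within their counting interval, 25 moved outside it and 7 changed sign. No library could be left out, since each group has 1. Leaving out the 2 cells, the Cd3 cells and the 3-marker gate, alone or with the 2 cells left out, were chosen after seeing the data. Apart from the gate and the 2 cells, the cause was not tested. With 22 to 31 NK-like cells per wound, a member at 0 UMIs was not detectable at this depth, which does not show that it is absent.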
